A study of Mus musculus with 4 samples.

Results

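Regulatory T cells (Treg) were compared with naive CD4+ T cells by sequencing of captured methylated DNA, with 1 library on each side. These are 2 of the 4 samples of the study. All 10000 regions of its table were used, with no selection by values made here. How regions were chosen for that table is not stated, so they need not represent the genome. Cells of both kinds were taken from female Balb/c mice, out of spleen and lymph node, and were stimulated for 3 h with PMA (10 ng/ml) and ionomycin (500 ng/ml), which together mimic T cell receptor signalling. Naive cells were gated as CD3+CD4+CD45RB_high after that stimulation. Treg cells were gated as CD3+CD4+CD25++ first and stimulated after the sort, so that handling and cell type cannot be told apart. CD25 is also carried by activated conventional T cells, and no other Treg marker was named for the gate. The number of animals, and any pooling of them, could not be read from the labels.

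Treg cells restrain other immune cells and depend on the transcription factor Foxp3. Their stable state is known to rest in part on demethylation of an intronic element of Foxp3 and of elements at Ctla4, Il2ra, Ikzf2 and Tnfrsf18, while naive cells keep these methylated. The capture used here binds methylated CpGs, so reads in a region rise with its methylation and also with its number of CpGs. Foxp3, Il2ra, Ctla4, Ikzf2, Ikzf4 and Tnfrsf18 each had 0 regions in the table, as did the naive markers Ccr7, Lef1, Tcf7 and Il7r. The labels could therefore not be checked against these defining loci.

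Every deposited value was a whole number of reads times a constant, 0.996 in the naive library and 0.352 in the Treg library. The table held 34277 naive and 74571 Treg reads, with medians of 3 and 7 reads per region (interquartile ranges 2 to 4 and 5 to 9). Only 25 regions had no Treg read, with at most 7 naive reads in any of them. Another 161 had no naive read, and these held a median of 8 and at most 21 Treg reads. One region (counted in both groups) had neither. All intervals below are exact at 95% and cover counting error only, since reads without molecular identifiers are not independent molecules. With 1 library a side, no difference has a replicate check.

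At the deposited scaling the mean value per region was 2.63 in Treg and 3.41 in naive cells, a ratio of 0.770 (0.760 to 0.780). The median of the region ratios was -0.29 on the log2 scale, after adding 0.5 to both values. Setting both columns to the same table total moved the ratio of means up by 0.38 on the log2 scale and the median to 0.04; with 0.5 added, single regions of few Treg reads moved by less. A region or gene was counted as higher or lower in Treg when its log2 ratio was at least 1 in size, a fold of 2. By that rule 833 regions (8.33%) were higher and 2217 (22.2%) lower at the deposited scaling. At equal totals 1518 (15.2%) were higher and 1233 (12.3%) lower, so the side that held more regions depended on the scaling. The 833 and the 1233 were called at both scalings. The read interval lay away from equality in 22 regions (0.22%) on the Treg side and 445 (4.45%) on the naive side, or in 93 (0.93%) and 166 (1.66%) at equal totals.

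**Figure D1:**
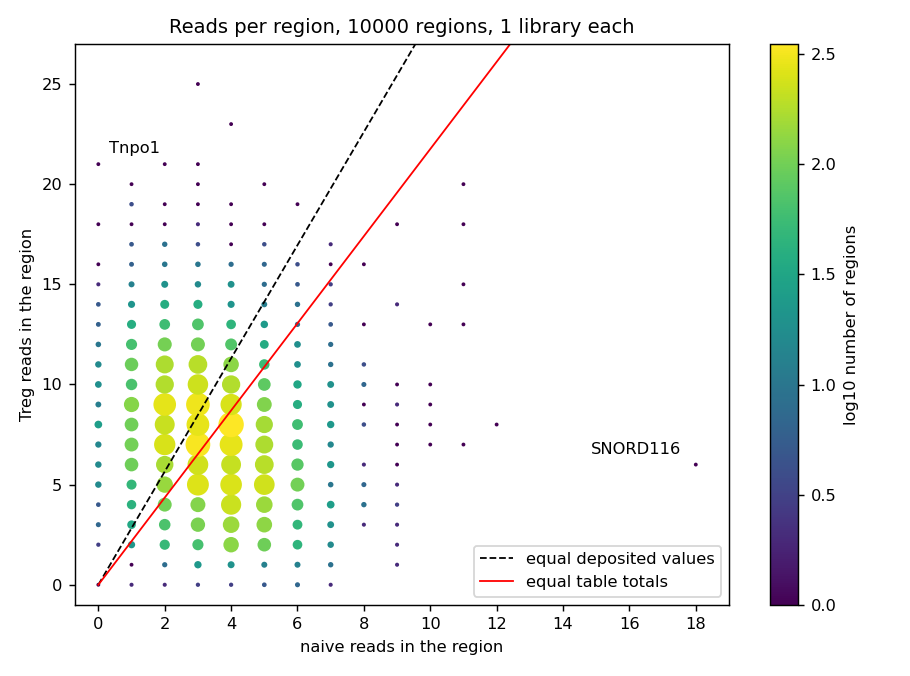
Naive reads (horizontal axis) against Treg reads (vertical axis) in the 10000 regions; point size and colour give the number of regions at each pair of counts. The dashed line marks equal deposited values and the solid line equal table totals. Regions at 2 to 4 naive reads spread from under 5 to over 10 Treg reads, and SNORD116 stands apart at 18 naive and 6 Treg reads.

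Across regions, reads of the 2 libraries ran weakly in opposite directions (Pearson r = -0.20, Spearman rho = -0.22, 10000 regions of the same 2 libraries). Regions with 0 naive reads held a mean of 8.40 Treg reads, those with 1 held 8.48, those with 3 held 7.78 and those with 6 held 6.28. The mean was higher again at 7 naive reads (6.78) and at 8 or more (7.66, 70 regions). The labels do not say how regions were picked for the table, and the part of that choice in this relation was not tested.

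Exons carried the largest shift between the location classes. The table assigned 1658 regions to exons, 7865 to introns and 477 to promoters. Exonic regions took 18.2% of Treg reads (17.9 to 18.5) and 15.9% of naive reads (15.6 to 16.3), a ratio of shares of 1.14 (1.11 to 1.18), which does not depend on the scaling. Intronic regions took 57346 Treg and 27114 naive reads, a ratio of 0.972 (0.958 to 0.986). Promoter regions, 4.92% of Treg and 4.95% of naive reads, gave 0.993 (0.937 to 1.05). At equal totals 18.8% of exonic regions were higher in Treg and 8.14% lower. In introns the 2 sides were close, at 14.4% and 13.2%.

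The share ratio also climbed with region length. With regions in 4 length classes of about equal number, in the shortest (93 to 212 bp) it was 0.753 (0.735 to 0.773), and in the longest (297 to 790 bp) 1.24 (1.20 to 1.27). Mean naive reads per region went from 3.87 in the shortest class to 3.22 in the longest, while mean Treg reads went from 6.34 to 8.66. Exonic regions were only slightly longer, with 28.7% of them in the longest length class against 23.9% of intronic regions. Within each length class exons stood above introns: 0.873 against 0.736 in the shortest, then 1.10 against 0.939, 1.20 against 1.09, and 1.37 against 1.20 in the longest. The intervals of exon and intron were apart in all 4 length classes. What the lengths reflect was not tested.

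**Figure D2:**
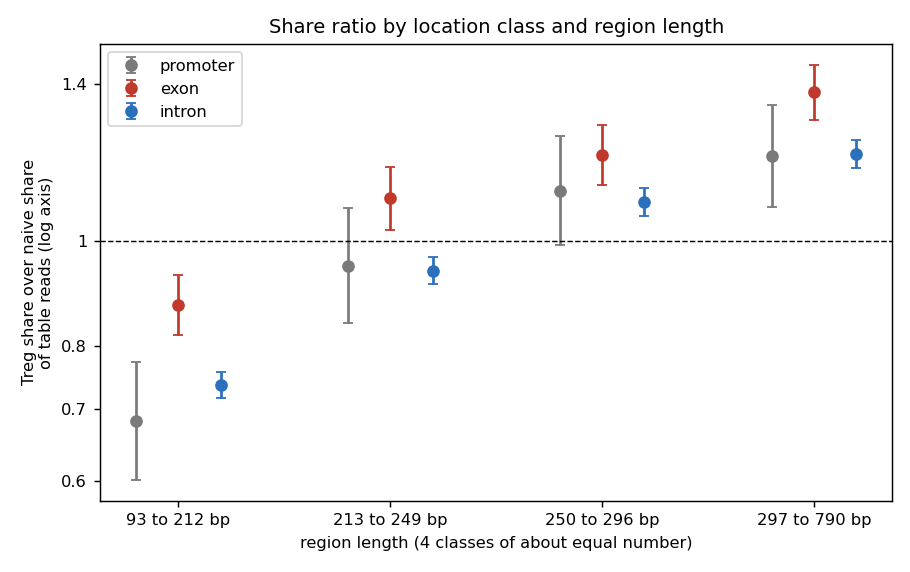
Treg share of table reads over naive share (log axis) for promoter, exon and intron regions in each of 4 classes of region length; bars are exact 95% counting intervals. Exons lie above introns in all 4 length classes, and all classes climb from below 1 in the shortest class to above 1 in the longest.

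The shift was measured in exons beyond the first. Exon 1 regions (104, promoters not included) gave a share ratio of 1.00 (0.884 to 1.14), exons 2 to 5 gave 1.15 (1.09 to 1.21) and exons beyond 5 gave 1.15 (1.10 to 1.20). The exon 1 interval overlaps the others, and no test of the difference between exon positions was made. In the 538 genes with both exonic and intronic regions, the exonic ones gave 1.13 (1.07 to 1.19) and the intronic ones 0.998 (0.963 to 1.03). The exonic shift was thus also measured between parts of the same genes.

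Of the exonic regions, that of Tnpo1 lay furthest to the Treg side. Tnpo1, which encodes a nuclear import receptor, held 0 naive and 21 Treg reads in exon 7 (chromosome 13, 99640151 to 99640438, build mm9), so that the Treg value was 2.48 times the value of 3 naive reads, and the interval of the ratio started at 1.84. The naive value of that region could reach 3.67, below the Treg interval of 4.58 to 11.3. These intervals take no account of its choice as the furthest of all regions, and it did not pass the adjusted exact test. Exon 11 of Ttc7b, part of a phosphatidylinositol 4-kinase complex, held 0 and 15 reads. Exon 3 of Wdr5, a subunit of histone H3 lysine 4 methyltransferases, exon 5 of the chromatin regulator gene Ankrd11 and exon 38 of Brwd3 held 0 and 13 each. On the naive side, exon 3 of the cystatin gene Cst11 held 7 naive and 0 Treg reads. Exon 1 of the olfactory receptor gene Olfr1415 and exon 8 of Ano4, an anoctamin, held 6 and 1, and exonic regions of Zmat4 and BC030500 held 5 and 1.

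Of the promoter regions, 54 had their middle within the RefSeq promoter window, from 250 bases before to 50 after a gene start, going by the distance listed in the table. That distance is not defined there and was taken as the position relative to the gene start: all 114 promoter regions with an exon label reached past its 0, as did 20 of the 363 without one. Of the 54, 13 belonged to genes with a single RefSeq promoter. The 2 of these furthest to either side by the deposited values are shown, a choice made after the values were seen. They give the DNA around the gene start, which is not the stretch that was read: the regions are in mm9 and differ in extent, and the CpGs of the regions themselves were not examined. CpGs are in capitals, each sequence runs 5′ to 3′ along the gene's strand, and coordinates are those of RefSeq on GRCm38.p6.
Gpx7, - strand, chr4:108406664-108406963: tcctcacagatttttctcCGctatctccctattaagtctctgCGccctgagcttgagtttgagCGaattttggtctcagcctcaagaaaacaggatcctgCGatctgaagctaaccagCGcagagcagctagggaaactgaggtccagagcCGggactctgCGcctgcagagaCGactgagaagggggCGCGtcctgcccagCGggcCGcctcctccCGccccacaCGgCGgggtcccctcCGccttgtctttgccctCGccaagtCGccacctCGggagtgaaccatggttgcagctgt
Slc11a1, + strand, chr1:74374953-74375252: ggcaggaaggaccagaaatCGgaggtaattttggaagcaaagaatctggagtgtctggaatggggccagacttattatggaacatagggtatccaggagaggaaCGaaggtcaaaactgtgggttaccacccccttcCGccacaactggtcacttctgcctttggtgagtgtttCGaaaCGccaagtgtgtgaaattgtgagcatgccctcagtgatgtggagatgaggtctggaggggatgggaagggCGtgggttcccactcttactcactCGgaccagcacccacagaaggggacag
2900056M20Rik, - strand, chrX:152327444-152327743: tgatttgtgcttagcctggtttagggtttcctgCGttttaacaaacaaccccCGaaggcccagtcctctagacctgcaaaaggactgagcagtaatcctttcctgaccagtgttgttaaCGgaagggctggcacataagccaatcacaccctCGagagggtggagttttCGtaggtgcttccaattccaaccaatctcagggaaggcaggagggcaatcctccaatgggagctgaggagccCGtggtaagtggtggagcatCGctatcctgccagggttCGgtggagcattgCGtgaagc
C130026I21Rik, - strand, chr1:85270517-85270816: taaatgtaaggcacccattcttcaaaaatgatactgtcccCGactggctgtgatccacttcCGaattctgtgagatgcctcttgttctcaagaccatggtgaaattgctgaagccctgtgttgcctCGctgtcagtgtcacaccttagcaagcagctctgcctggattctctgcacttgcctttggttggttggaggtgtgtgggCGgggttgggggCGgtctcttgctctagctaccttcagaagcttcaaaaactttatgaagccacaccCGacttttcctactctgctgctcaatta

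The region of Gpx7, a glutathione peroxidase gene, held 1 naive and 6 Treg reads (log2 ratio 0.81, or 1.12 at equal totals). Its RefSeq window had 19 CpGs, a number reached by 30.4% of all RefSeq promoters given. That of Slc11a1, a divalent metal transporter of phagocytes, had 7 CpGs, which 54.2% of promoters reach, and its region held 4 and 15 reads (0.37, or 0.72). On the other side, the region of C130026I21Rik held 10 and 8 reads (-1.66, or -1.33), and its window had 6 CpGs, reached by 58.2%. The region of 2900056M20Rik held 5 and 5 reads (-1.28, or -0.97), and its window had 9 CpGs, reached by 48.1%. Of these 4, only C130026I21Rik passed the fold of 2 at both scalings, and the mappability of its region was not examined. Genes of promoter regions higher in Treg at equal totals had a median of 12 CpGs in the window (46 of 71 with a sequence). Those lower in Treg had 10 (24 of 60), against 9.5 for all promoter regions with a sequence (272 of 477). With sequences for fewer than 80% of each set, a comparison of CpG numbers is void.

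The promoter regions furthest to either side lay outside that window. The promoter of A430078I02Rik held 0 naive and 14 Treg reads, and that of Mcpt1, a mast cell protease, 0 and 12 in a region also labelled exon 2. Regions at Nme1, a nucleoside diphosphate kinase, held 0 and 11, and at Hn1 and at Aass, an enzyme of lysine breakdown, 0 and 10. On the naive side SNORD116, which encodes a small nucleolar RNA, held 18 and 6 reads. It is one of many near-identical imprinted copies, so the origin of its reads is uncertain. Regions at 2 other SNORD116 identifiers held 6 and 6, and 3 and 3. Its values were 17.9 (10.6 to 28.3) in naive and 2.11 (0.776 to 4.60) in Treg cells. It alone passed a 2-sided exact binomial test with Benjamini-Hochberg adjustment over all regions, a comparison of 2 libraries rather than of cell types (adjusted p = 0.00794, and 0.150 at equal totals). Gm9836 held 6 and 1 reads, Hcfc1r1 5 and 1, and BC031781 and SNORA17 6 and 2.

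Among introns, the largest ratios toward Treg were all regions without a naive read. Slc43a3, a solute carrier gene, held 18 Treg reads, Ncor1, which encodes a corepressor of nuclear receptors, 16, and the neuronal transcription factor gene Npas3 15. Sgcd, Gm13067, Ntm and Grb2, the adaptor that links receptors to Ras, held 14 each, and the homeobox gene Cux2 13. Foxp1, a transcription factor that keeps T cells quiescent, belonged to the same group with 0 naive and 13 Treg reads (chromosome 6, 98934698 to 98934985). Toward naive cells, Serpinb12 held 7 naive and 0 Treg reads. Gpatch2, Pcdh15, Slc25a21, Galnt14, St7 and the guanine nucleotide exchange factor genes Trio and Vav3 held 6 and 0 each. Regions of App, the amyloid precursor gene, and of the adhesion gene Sdk1 held 9 and 1, and Kif26b 5 and 0. These depths differ by side: 0 naive reads still allow a value of up to 3.67, and 0 Treg reads up to 1.30.

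Summing the regions of a gene gave more reads per value only where a gene had several regions. SNORD116 has 1, so its test below uses the same 18 and 6 reads as above. Its p-value is adjusted there over genes of at least 20 reads instead of all regions. Of 5377 gene identifiers, 1674 held at least 20 reads over both libraries, with a median log2 ratio of -0.31 (0.07 at equal totals). Of these, 57 (3.41%) were higher and 190 (11.4%) lower in Treg at the deposited scaling, and 124 (7.41%) and 50 (2.99%) at equal totals. Genes high in Treg pass the minimum more easily, because the Treg library held more reads. Over all 5377 genes, with 0.5 added to both values, 343 (6.38%) were higher and 993 (18.5%) lower at the deposited scaling. At equal totals these were 645 (12%) and 490 (9.11%). The read interval lay away from equality in 10 genes (0.597%) on the Treg side and 186 (11.1%) on the naive side, or in 34 (2.03%) and 40 (2.39%) at equal totals. The adjusted exact test called 0 genes higher and 17 lower, and at equal totals 1 lower, SNORD116 (adjusted p = 0.0251).

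Of the 10 genes furthest to the Treg side, 5 rested on 1 region. All 10 reached the minimum of 20 reads almost wholly through their Treg reads, so that minimum shaped this ranking. Rspo4, a Wnt-enhancing R-spondin, held 1 naive and 20 Treg reads in exon 5 (ratio 7.08, interval 1.13 to 293), and Ddx31, an RNA helicase, 1 and 20 over an exonic and an intronic region. Tcf3, whose E proteins act in lymphocyte development, and Cldn6, a tight junction gene, held 1 and 19. Esrp1, a splicing regulator of epithelial cells, held 2 and 24 in 2 introns, with a ratio of 4.25 (1.05 to 37.1). Ncor1 held 3 and 29 over 3 regions (ratio 3.42, 1.06 to 17.5), with 2 and 6 in exon 47 and 0 and 16 and 1 and 7 in introns. Gm9144 held 2 and 21 reads in a promoter region, Ankrd11 and Pgm3, an enzyme of amino sugar synthesis, 2 and 20, and the palmitoyltransferase gene Zdhhc7 2 and 19. The mappability of the pseudogene-like and predicted genes among these was not examined.

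Genes furthest to the naive side were read mostly in introns, as was the table as a whole (7865 of 10000 regions). Dmd, the dystrophin gene on the X chromosome, held 19 naive and 12 Treg reads over 3 introns, with 6 and 5, 5 and 3, and 8 and 4 in the single regions. Its ratio was 0.223 (0.0989 to 0.485), and 0.129 to 0.630 at equal totals. Cntn1, a neuronal adhesion molecule, held 23 and 16 over 5 introns, a ratio of 0.246 (0.122 to 0.487). Its 5 regions held 6 and 4, 3 and 6, 4 and 2, 2 and 0, and 8 and 4 reads, so 1 of them lay close to the table as a whole. Asph and Gm10945 held 14 and 9, Eml4, a microtubule protein gene, 13 and 9, and the glycosyltransferase gene Galnt5 15 and 11. App held 12 and 9, the G protein subunit gene Gng2 and the centrosome protein gene Sfi1 17 and 13.

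**Figure D3:**
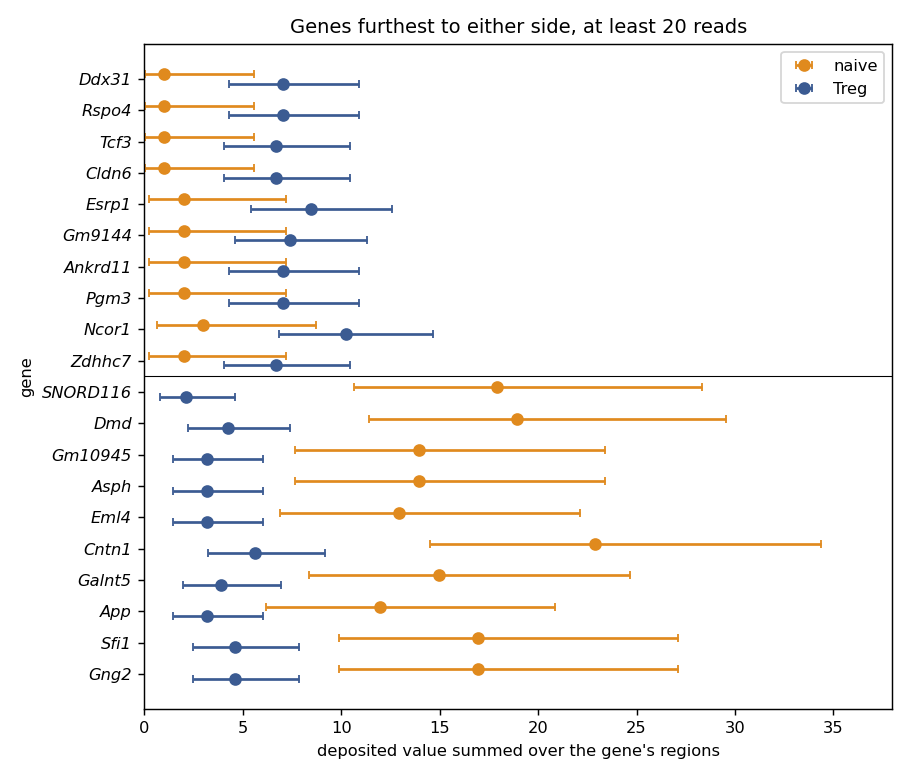
Deposited values summed over the regions of each gene (horizontal axis) for naive and Treg cells, for the 10 genes furthest to the Treg side (above the line) and the 10 furthest to the naive side; bars are exact 95% counting intervals. The intervals of naive and Treg values overlap in the upper 10 genes and are apart in the lower 10.

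The 15 genes with the most reads, singled out after the values were seen, all had intervals that included 1 at equal totals. Fgfr2, a fibroblast growth factor receptor gene with 39 regions, held 119 naive and 263 Treg reads (ratio 0.782, 0.627 to 0.979), and Auts2, with 21 regions, 67 and 167 (0.882, 0.660 to 1.19). Park2, which encodes a ubiquitin ligase, gave 0.625 (0.482 to 0.814) and the RNA-binding protein gene Rbms3 0.624 (0.481 to 0.814), with intervals that reached 1.06 at equal totals. As a group, the intronic regions of genes with 10 or more regions gave a share ratio of 0.898 (0.858 to 0.940), against 0.989 (0.962 to 1.02) for introns of genes with 1 region. Weighed against regions of the same location and length class, these were 0.914 (0.873 to 0.957) and 1.03 (0.998 to 1.05).

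Lists of T cell and other genes were counted by the same rule on summed values with 0.5 added, and a member is named as higher or lower where it passed at both scalings. Over all 5377 genes, 343 (6.38%) were higher and 490 (9.11%) lower in that sense, with a median log2 ratio of -0.30, or 0.04 at equal totals. Such a call goes by size alone, and many named members rest on few reads. At the deposited scaling the read interval of some included 1, as for Socs2 (0.0389 to 1.57) and Pax5 (0.762 to 28.3). That of others did not, as for Nfkb1 (1.02 to 17.0). Of 26 Treg identity genes, 4 had a region. Socs2, a suppressor of cytokine signalling, was lower (4 naive and 3 Treg reads), and 0 were higher. Nrp1, a semaphorin receptor of thymus-derived Treg cells, held 5 and 5 reads, Tnfrsf9, a costimulatory receptor, 5 and 6, and Itgae, the alpha chain of an integrin that binds E-cadherin, 5 and 9 in exon 14. All 4 lay on the naive side of the table median, with a list median of -1.17 (-0.86 at equal totals). Their summed ratio was 0.428 (0.223 to 0.832), and at equal totals 0.556 (0.290 to 1.08). With 42 reads in all, the list was not separable from the table at equal totals.

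Genes that relay T cell receptor signals leaned the other way. Of 30, 8 had a region, 3 were higher and 0 lower, with a list median of 0.84 (1.17 at equal totals). Nfkb1, the p105/p50 subunit gene of NF-kB, held 3 naive and 28 Treg reads: 2 and 16 in exon 21 (chromosome 3, 135253099 to 135253374) and 1 and 12 in an intron. The kinase gene Fyn held 1 and 12 reads (chromosome 10, 39227290 to 39227795) and the adaptor gene Lcp2 1 and 8. Cd5, an inhibitory receptor, held 1 and 7, Nfatc2 2 and 10, Nfatc1 3 and 9, Cd28 4 and 8, and Plcg1 3 and 3. The list summed to 18 and 85 reads, a ratio of 1.67 (0.996 to 2.95), or 2.17 (1.29 to 3.84) at equal totals. None of its 9 regions was in the shortest class, and against regions of the same class and length the ratio was 1.95 (1.16 to 3.45). All of these intervals include Nfkb1, the member with the most reads. Without that gene the list's ratio was 1.34 at the deposited scaling, so the summed ratio depended in part on Nfkb1. No interval is given without Nfkb1, so a lean of the other members as a set is not shown.

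Of 25 genes of naive T cells, 9 had a region, with a median of -0.14 (0.16). Foxp1 and Bach2, a repressor of effector genes (1 naive and 8 Treg reads), were higher and 0 lower. Igf1r held 18 and 46 reads, Itga6 12 and 25, Actn1 6 and 12, and Pdk1 4 and 12. Effector and memory genes gave 10 of 28, with a median of -0.20 (0.15). S100a4 (1 and 11, promoter) and S100a11 (1 and 10), calcium-binding proteins of activated cells, were higher, and Cd44, the memory marker and hyaluronan receptor, was lower (5 and 2). Prdm1 held 8 and 19 reads, Gzmk 8 and 17, Runx2 5 and 17, and Runx3 and Il18r1 4 and 10 each. Helper lineage genes gave 13 of 30, with 0 higher and 2 lower, Tox2 (6 and 5) and Sh2d1a (5 and 3), and a median of -0.62 (-0.28). Rora held 58 and 101 of that list's reads, Il1r1 13 and 26, Il17a 9 and 16, and Stat4 6 and 15. The helper list summed to a ratio of 0.616 (0.492 to 0.775), or 0.801 (0.639 to 1.01) at equal totals.

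Signalling lists were mixed. Of 20 IL-2 and STAT5 genes, 3 had a region: Grb2 was higher (0 and 14), Socs2 lower, and Sos1 held 4 and 5 reads, with a median of -0.99 (-0.69). Of 24 TGF-beta genes, 12 had a region and 0 were called on either side, with a median of -0.41 (-0.08). Ltbp2 held 8 and 27 reads, Smad3 11 and 23, Smad6 13 and 20, and Eng 12 and 18. Of 40 Wnt genes, 21 had a region, 3 were higher and 3 lower, with a median of -0.40 (-0.04). Rspo4, Wnt4 (1 and 17, exon 5) and Rnf43, a ligase that removes Wnt receptors (3 and 20), were higher, while Rspo3 (7 and 2), the Wnt inhibitor gene Dkk2 (9 and 7) and Ctnnb1 (3 and 2), which encodes beta-catenin, were lower. Tcf7l2 held 11 and 23 reads, Wnt5b 8 and 24, Lrp5 12 and 16, and Apc 9 and 19. Of 26 metabolic genes, 9 had a region, with a median of 0.07 (0.41). The glucose transporter gene Slc2a3 was higher (4 and 25) and the hexokinase gene Hk1 lower (9 and 4). Rptor held 22 and 50 reads, Acacb 11 and 26, and Acsl1 7 and 25.

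Genes of DNA methylation and chromatin had 10 of 30 members in the table, 0 called on either side at both scalings, and a median of 0.40 (0.74). Dnmt1, the maintenance methyltransferase, held 2 and 12 reads, Dnmt3a, a de novo methyltransferase, 5 and 19, Tet3, an oxidase of methylcytosine, 3 and 12, Hdac4 5 and 16, and Hdac9 12 and 18. Adhesion genes gave 7 of 20, with Cd44 lower, 0 higher and a median of -0.32 (0.01). Itgb3 held 7 and 35 reads, Itga1 12 and 27, Itgal 8 and 18, and Itga2 9 and 15. Imprinted genes gave 5 of 27, with 0 called, a median of -0.23 (0.09) and Kcnq1 at 22 and 39, Grb10 at 5 and 11, Airn at 3 and 9 and Igf2r at 3 and 7. The imprinted SNORD116 was not on that list, and its log2 ratio was -2.82 (-2.50), lower at both scalings. Developmental transcription factors gave 14 of 35, with 0 higher, Tbx5 (7 and 6) and Pbx3 (3 and 2) lower, and a median of -0.19 (0.17). Sox5 held 58 and 138 of their reads, Meis1 8 and 35, Zfpm2 16 and 26, and Sox6 11 and 28.

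Both gates required CD3 and CD4, which B cells and most myeloid cells lack. Marker lists of other cell types did not lean alike. B cell markers had 7 of 16 genes in the table and a median of 0.39 (0.75). Pax5, which fixes B cell identity (2 and 18 reads), and Bank1 (1 and 8) were higher, and 0 were lower. Ebf1, needed for B cell commitment, held 29 and 53 reads over 8 regions, Blk 9 and 27, and Blnk 5 and 19. The B cell list summed to 53 naive and 148 Treg reads, a ratio of 0.988 (0.717 to 1.38), or 1.28 (0.932 to 1.79) at equal totals. Both ratios include Ebf1, the member with the most reads. Without Ebf1 the list's ratio was 1.401 at the deposited scaling, so the summed ratio depended on that gene. Myeloid and dendritic markers (4 of 18: Csf3r 8 and 13, Mpo 4 and 9, Flt3 4 and 9, Sfpi1 2 and 5) and NK, CD8 and gamma-delta T cell markers (5 of 16: Zbtb16 10 and 37, Blk 9 and 27, Gzmk 8 and 17, Sox13 5 and 7, and Txk 4 and 8) had 0 called. Their medians were -0.29 (0.04) and -0.38 (-0.03). Methylation at a marker gene does not count cells of that type, and the part of other cells in these libraries was not tested.

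Neuronal genes, which T cells largely keep silent, gave the most precise list. Of 28 genes, 26 had a region, 167 regions in all, 163 of them intronic. Gria2, a glutamate receptor gene, was lower (5 and 4) and 0 were higher. Auts2 held 67 and 167 reads, Csmd1 43 and 71, Dscam 40 and 73, and the calcium channel gene Cacna1c 36 and 67. The list summed to 616 naive and 1089 Treg reads, a ratio of 0.626 (0.566 to 0.692), or 0.813 (0.735 to 0.898) at equal totals, with a median of -0.68 (-0.32). Against regions of the same location and length class the ratio was 0.846 (0.766 to 0.936), beside 0.914 for introns of genes with 10 or more regions.

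**Figure D4:**
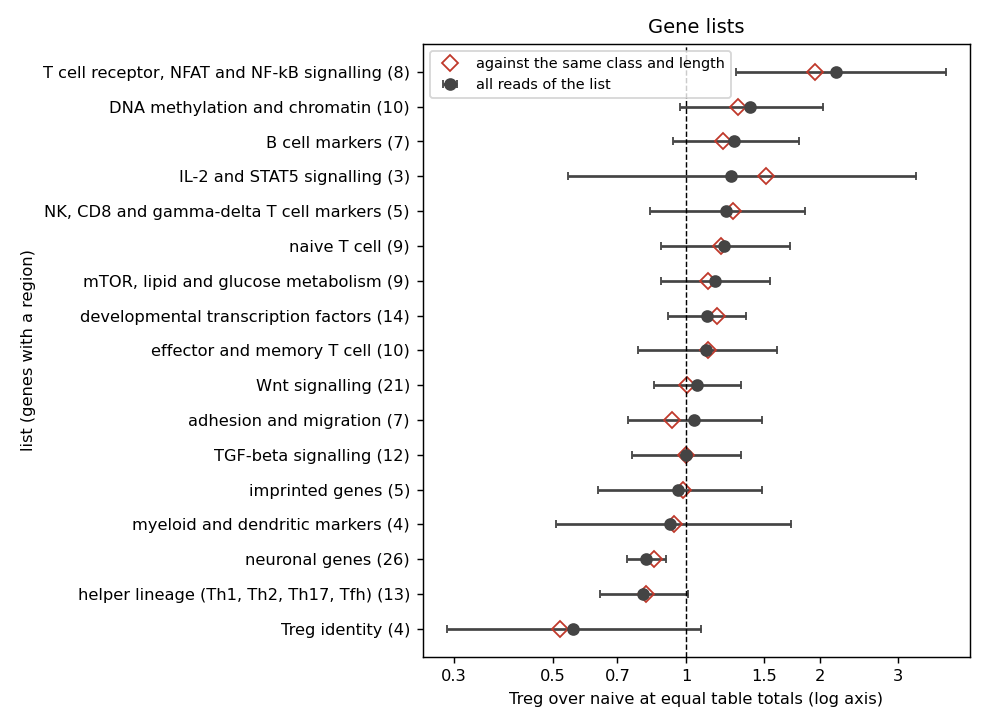
Treg over naive reads of each gene list at equal table totals (log axis), with exact 95% counting intervals; open diamonds give the ratio against regions of the same location and length class, and numbers in brackets the genes with a region. T cell receptor genes lie at 2.17 and neuronal genes at 0.813, with intervals away from 1, and the other 15 intervals include 1. The T cell receptor value includes Nfkb1 and the B cell value includes Ebf1, each the member of its list with the most reads. Intervals without these members are not drawn.

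By chromosome the share ratio ranged from 0.922 (0.841 to 1.01) on the X chromosome to 1.06 (1.01 to 1.12) on chromosome 11. Chromosome 1 gave 0.951 (0.906 to 0.999), and the intervals of the other 18 chromosomes included 1. Against regions of the same location and length class, chromosome 11 gave 1.05 (0.997 to 1.10) and chromosome 1 gave 0.949 (0.903 to 0.997). The X chromosome gave 0.916 (0.836 to 1.01) by that measure. In female cells the inactive X chromosome carries dense methylation at CpG islands. X-linked exons (50 regions) held 175 naive and 330 Treg reads, 0.781 (0.648 to 0.943) of what exons of the same lengths gave over the table. X-linked introns gave 0.999 (0.889 to 1.12) and the 24 X-linked promoters 0.836 (0.639 to 1.10).

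**Figure D5:**
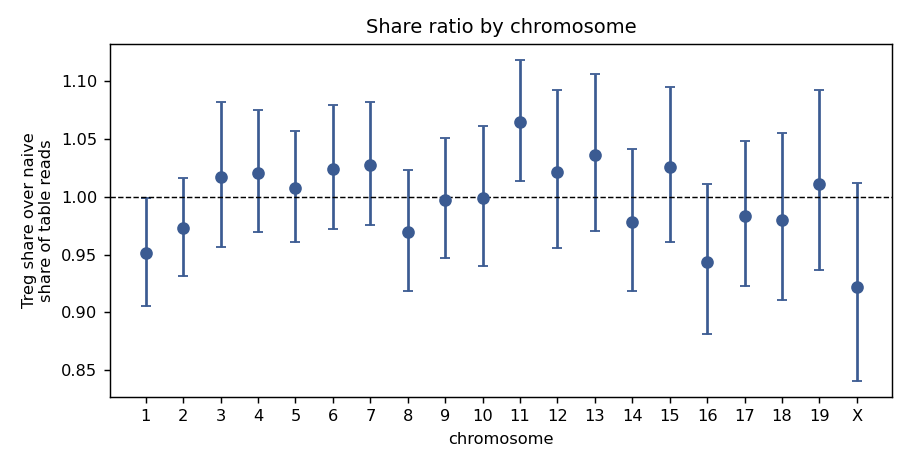
Treg share of table reads over naive share for each chromosome; bars are exact 95% counting intervals. Values run from 0.922 on the X chromosome to 1.06 on chromosome 11, and 18 of the 20 intervals include 1.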

How the data were processed

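Methylated DNA of sorted naive and Treg cells was captured with a MethylCap kit, and libraries came from 250 ng of captured DNA with fragments of 250 to 350 bp, per the labels' protocols. Bowtie 0.12.7, FastQC and build mm9 appear, without their roles, in the submitters' processing notes. How regions were called, chosen and scaled is not stated there. In the deposited table each value is the authors' signal for a region and library. From the values, 100% were whole multiples of 1 constant per library (relative tolerance 1e-06), so reads were recovered by division. The Th1 and Th17 columns (2) were not used.

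Gene names and mm9 coordinates are those of the table; 5159 of 5377 genes matched a GRCm38.p6 RefSeq symbol or synonym. Ratio intervals are Clopper-Pearson intervals of the Treg share of reads, turned into ratios; for class and list sums they take the table totals as known. Intervals of a single value are exact Poisson. For ratios against the same class and length, Treg reads were divided by those expected from the naive reads of each location class and length class. A gene with 0 reads on a side was set to a floor of 3 reads there. Computations used Python 3.11.15 with scipy 1.17.1, and the exact test was tested on simulated data.

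The members and lists were chosen with earlier results of these data known. Named were the 12 regions furthest to either side (1 per gene, ties by reads and position), the 5 furthest in promoters and in exons, the 10 genes furthest with at least 20 reads, up to 4 list members with the most reads and any passing at both scalings, and 11 fixed Treg and naive genes. Promoter sequences had been planned for the extreme promoter regions; the middles of those lay outside the RefSeq window, so others were shown. Alternatives were other scalings, pseudocounts, thresholds, minimum reads, merging of neighbours, interval and exact test rules, class rules and list members left out. Ratios within length classes, class and length references and the added rules at equal totals were chosen after seeing the data.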

Additional observations from a re-analysis of the deposited data

How the results depend on the processing

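Scaling moved most counts. With equal table totals the ratio of mean values went from 0.770 to 1 by construction, and with median-of-ratios scaling to 0.989. Regions higher in Treg (833) became 1518 under both, and regions lower (2217) became 1233 and 1310. Genes of at least 20 reads higher in Treg (57) became 124 and 122, and lower (190) became 50 and 58. A pseudocount of 5 left 6 regions higher and 73 lower, and a log2 threshold of 1.5 left 405 and 1211 regions and 21 and 27 genes. Requiring the read interval to lie away from 1 left 22 and 445 regions and 10 genes higher. The adjusted exact binomial test left 0 regions higher and 1 lower, and 0 genes higher and 17 lower. Of all 10000 regions, 32 higher and 808 lower reached an unadjusted p under 0.05 in that test. At equal totals, alternatives added after seeing the data, the interval left 93 and 166 regions and 34 and 40 genes. The exact test then left 0 and 0 regions (115 and 361 of all 10000 unadjusted) and 0 and 1 genes. A minimum of 10 reads left 915 regions lower. With at least 10 reads per gene 298 genes were higher and 678 lower, and with at least 40 reads 3 and 40. As a median of region ratios over the table median, exons gave 1.09 and introns 0.918. Read intervals excluded equality in 3 lists, and in 5 without each list's member with the most reads. Of the other alternatives of main results, 25 stayed within their limits. No paired analysis was possible because each population has 1 library, and for the same reason no replicate could be left out. Depth limits single regions most: at medians of 3 and 7 reads, differences under several fold were not detectable.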

Other observations

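Regions of 1 gene differed in size of ratio. In App, 1 intron region held 9 naive and 1 Treg reads (log2 ratio -3.47) and another 3 and 8 (-0.07, or 0.26 at equal totals). In Galnt5 an intronic region held 9 and 2 reads, while exons 8 and 9 held 4 and 5, and 2 and 4. In Gng2, exon 3 held 4 and 8 reads, exon 4 held 4 and 2, and an intronic region 9 and 3. The 3 introns of Gm10945 were alike, with 5 and 3, 4 and 3, and 5 and 3 reads.

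Promoter regions that the table also labelled exon 2, a set singled out after its values were seen, numbered 6 and held 15 naive and 71 Treg reads, a share ratio of 2.18 (1.23 to 4.09). These 6 include Mcpt1 (0 and 12 reads) and Gm9144 (2 and 21). All 114 promoter regions with an exon label gave 1.04 (0.931 to 1.17), and those without one (363) 0.976 (0.912 to 1.04).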
